A study of Mus musculus with 6 samples.

Results

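The 48 genes described here copy DNA and govern entry into S phase. They were taken by gene symbol from a table of 18956 genes and comprise origin licensing factors, helicase activators, DNA polymerases, the sliding clamp and its loader, enzymes of nucleotide supply, replication-coupled chromatin factors and 3 regulators of the G1/S step. All 48 were found. Gene expression had been measured by RNA sequencing of endothelial cells isolated from mouse lungs. The labels give 3 libraries as CSE-KO (Cre-positive) and 3 as WT (Cre-negative). CSE is cystathionine gamma-lyase, the product of Cth, an enzyme that makes cysteine and hydrogen sulfide. The study's title concerns cystine import, histone acetylation and vascular growth, and the comparison shows how replication transcripts differed between these groups. The Cre driver, the deleted exons, strain, age and culture of the cells, and whether each replicate is a separate mouse, are not stated in the labels. The p-values therefore rest on library-to-library spread alone, and that spread may be technical.

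In G1, cells load pairs of MCM2 to MCM7 rings onto origins with the help of the origin recognition complex, CDC6 and CDT1. In S phase, CDC45 and GINS turn these rings into active helicases, polymerase alpha and primase start each strand, and polymerases epsilon and delta extend the leading and lagging strand on the PCNA ring, which the RFC complex loads. E2F transcription factors, held in check by the RB family, drive many of these genes, and cyclin E with CDK2 drives the step itself. Endothelial cells of the adult lung are mostly quiescent in the animal and divide in culture or after injury.

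The targeted gene goes against the label. Cth stood at 49, 43 and 63 normalized counts in CSE-KO 1 to 3, against 29, 27 and 26 in WT 1 to 3 (log2 fold change 0.89, SE 0.18, adjusted p = 0.000794), and a value over the whole gene may include exons outside a deletion. All groups are therefore named by their labels. The deposited values are read as read counts divided by a size factor per library and rounded, and they summed to between 5698922 and 5765008 in CSE-KO and between 6028772 and 6052275 in WT. On the first principal component, CSE-KO 1 lay nearer to WT (−55.27) than CSE-KO 2 (−72.64) and CSE-KO 3 (−77.92) did, with WT 1 to 3 between 68.56 and 68.66, and results are also given without it where this matters. Among WT 1 to 3, values varied no more than sampling of reads would give. Between CSE-KO 2 and 3 they also varied about as sampling would give, while CSE-KO 1 differed from both by more. Some alternatives therefore count WT 1 to 3, or CSE-KO 2 and 3, as 1 sample. Of 14 endothelial markers, 12 fell and 2 did not pass, with sums between 12836 and 13580 in CSE-KO and between 19348 and 19666 in WT. The endothelial cadherin gene Cdh5 was abundant in CSE-KO (2666 to 2678) and in WT (2815 to 2849), while another endothelial marker, Vwf, was at 12, 9 and 17 in CSE-KO 1 to 3 and at 1, 5 and 10 in WT 1 to 3. Of 15 macrophage markers, 13 rose and 1, Cd14, fell. Their summed value was between 1610 and 1840 in CSE-KO and between 1052 and 1098 in WT. Most of that WT sum was Cd14 itself (WT range 775 to 788, CSE-KO range 187 to 315). The sums therefore understate the rise of the 13 markers. The median log2 fold change of the 15 was 4.86. Ptprc, Adgre1 and Itgam were between 18 and 62 in CSE-KO and at 0 in all WT libraries. Of 6 lymphatic endothelial markers tested, 5 fell and Pdpn rose, with sums between 5513 and 7510 in CSE-KO and between 14886 and 15172 in WT, and CSE-KO 1 held the highest CSE-KO value in all 5 that fell. Prox1, the transcription factor that defines lymphatic identity, was at 1085, 707 and 703 in CSE-KO 1 to 3 and at 2786, 2773 and 2805 in WT 1 to 3. Of 9 fibroblast and mural markers tested, 4 rose and 3 did not pass. The other 2, the mural markers Pdgfrb (log2 fold change −1.17) and Cspg4 (−3.32), fell. Fibroblast and mural markers summed to between 2514 and 2888 in CSE-KO and between 1966 and 2043 in WT.

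Replication genes were lower in the CSE-KO libraries in nearly all members. Of the 48, 44 fell (91.7%), 2 rose and 2 did not pass, by limma at an adjusted p under 0.05 over all genes tested. In the same fit, 39.0% of 13750 tested genes fell, 38.3% rose and 77.4% changed in either direction. The members' median log2 fold change was −0.49, against 0.00 over all tested genes, and single members lay between −2.56 and 0.34. The fall was at least 2-fold in 10 members, which is 20.8% of them, against 12.3% of all tested genes, and under 1.2-fold in 9. No member was at least 2-fold higher, against 9.93% of all tested genes. Every CSE-KO library was below every WT library in 45 members (93.8%, against 40.4% of tested genes), and every one was above in 2 (against 40.0%). Groups without overlap in either direction made up 80.4% of tested genes. All 48 had a value of at least 10 in each of the 6 libraries, so none entered the test through 1 group alone. In bulk RNA, fewer cycling cells and less of these transcripts per cell cannot be told apart. The endothelial, lymphatic endothelial, macrophage, fibroblast and mural markers given above differed between the same libraries, and their part in these values was not tested.

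**Figure D1:**
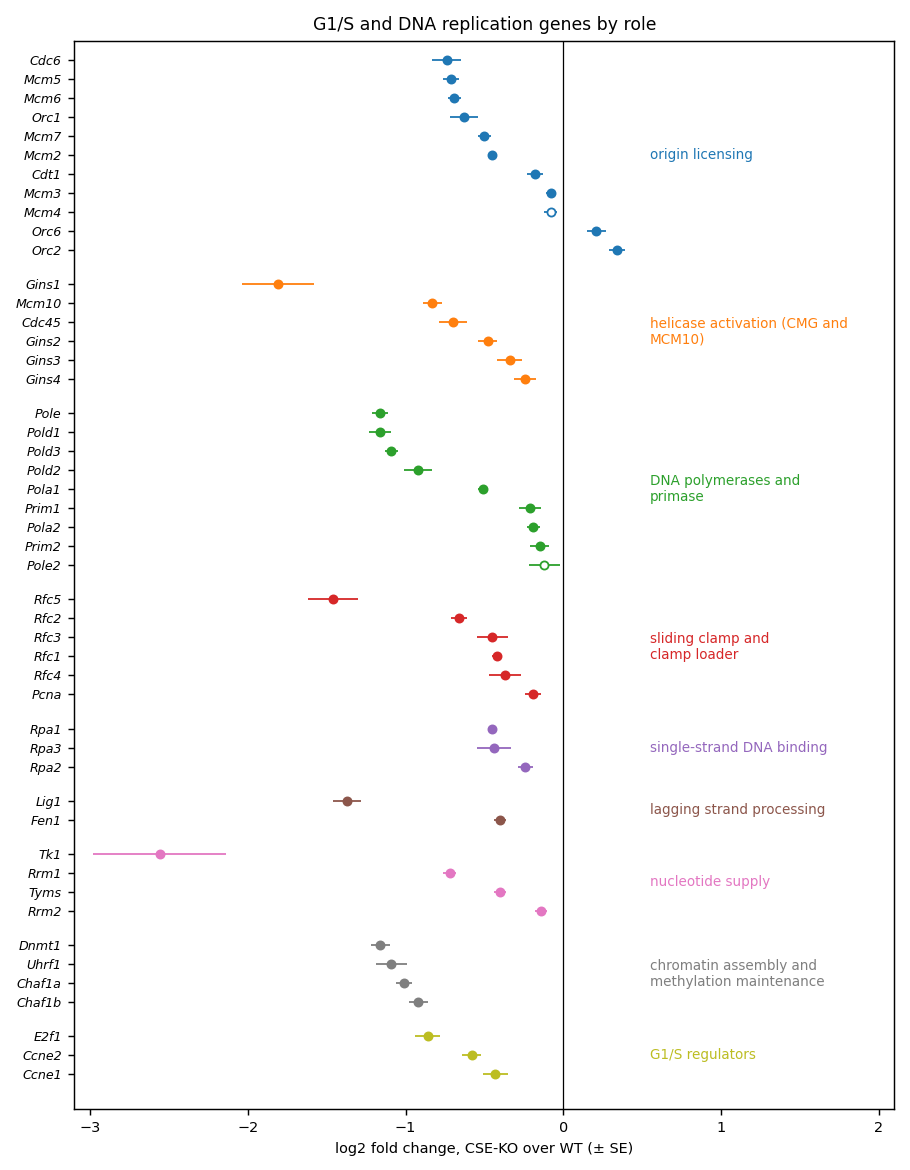
Log2 fold change of CSE-KO over WT for each of the 48 genes, with bars of ± 1 SE from limma (n = 3 libraries per group), grouped and coloured by role. Open circles did not pass the test. Nearly all points lie left of 0, with Tk1 farthest at −2.56, and only Orc2 (0.34) and Orc6 (0.21) lie to the right among the genes that passed.

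Summed over the 48 genes, the value was 15764, 14868 and 14722 in CSE-KO 1 to 3, against 22830, 22577 and 22481 in WT 1 to 3, so the CSE-KO mean was 66.8% of the WT mean. The sum over all genes of the table was 95.0% of WT. Roles differed in depth. Chromatin assembly and methylation maintenance genes had a sum of 47.2% of WT and lagging strand genes 53.7%, while licensing genes kept 81.5% and single-strand binding genes 76.0%. The median distance of the members from the WT mean was −0.46, −0.50 and −0.53 (log2) in CSE-KO 1 to 3. Among the CSE-KO libraries, the first had the highest value in 32 members (66.7%), against 61.5% of all genes that fell and 36.9% of all tested genes. Without CSE-KO 1, again 44 members fell and 2 rose, with a median of −0.51.

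**Figure D2:**
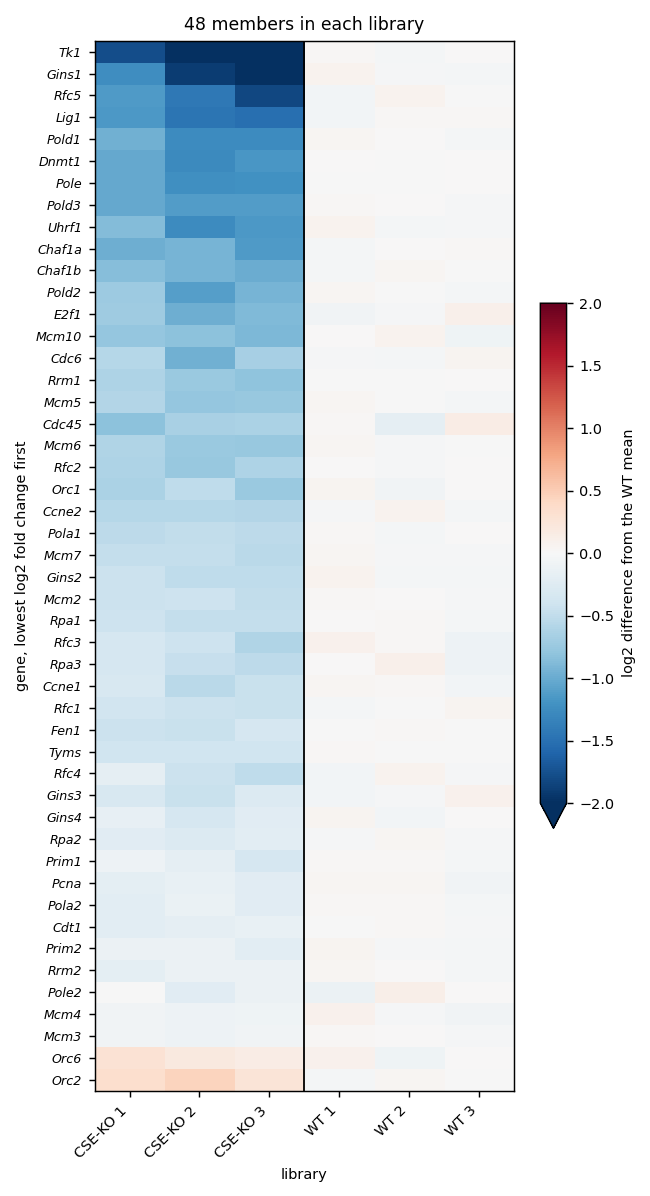
Heat map of the 48 genes in each library, CSE-KO 1 to 3 on the left and WT 1 to 3 on the right. Colour gives the log2 difference of a library from the WT mean of that gene, and rows run from the lowest log2 fold change (Tk1, −2.56) to the highest (Orc2, 0.34). The CSE-KO columns are blue in all rows but a few at the bottom, with the deepest blue in CSE-KO 2 and 3.

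Many replication promoters carry E2F sites, so the promoters of the members were searched for 4 forms of such a site, TTTCGCGC, TTTGGCGC, TTTCCCGC and TTTGCCGC, on both strands. RefSeq promoters (GRCm38.p6, 250 bases before to 50 after the most upstream start listed there) were at hand for 40 members. The others were Gins1, Gins2, Gins4, Mcm4, Pole, Prim2, Ccne2 and Rfc2. Some listed starts differ from the annotated gene start. The window of E2f1 (chr2:154569377-154569676, minus strand) lies wholly inside the gene, whose annotated start is 154569892, and so does that of Mcm7. Members counted without a match may therefore hold one near their annotated start. A match was found in 13 of the 40 (32.5%), against 4.17% of the 10204 tested genes with a promoter and 2.33% of all 27025 promoters. Those 13 held 19 matches, of which 4 overlapped another such match and 1 a CCAAT box. The 13 genes with a match had a median log2 fold change of −0.51 (−1.16 to −0.08), and the 27 without one −0.45 (−2.56 to 0.34). CCAAT (both strands) was in 25 of the 40 (62.5%, against 39.0% of tested genes) and TTTGAA, the core of the CHR element of mitotic promoters, in 5 (12.5%, against 12% of tested genes, 1220 of 10204). A match describes letters only. A stretch of 30 bases round the matches is shown for most of the 13 genes with an E2F-type match, from Pold1 (−1.16) to Mcm3 (−0.08). Those of Gins3 (−0.34), Cdt1 (−0.18) and Pole2 (−0.12, did not pass) are not shown. The matching bases are in capitals, and each stretch is read 5′ to 3′ along the gene.
Pold1, chr7:44548766-44548795, minus strand: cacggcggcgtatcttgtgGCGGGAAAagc
Pold3, chr7:100121467-100121496, minus strand: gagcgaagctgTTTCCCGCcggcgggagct
Cdc6, chr11:98908002-98908031, plus strand: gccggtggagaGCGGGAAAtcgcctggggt
Mcm5, chr8:75109347-75109376, plus strand: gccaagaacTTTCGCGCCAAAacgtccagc
Mcm6, chr1:128359795-128359824, minus strand: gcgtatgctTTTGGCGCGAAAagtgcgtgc
Orc1, chr4:108579416-108579445, plus strand: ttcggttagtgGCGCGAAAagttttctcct
Pola1, chrX:93632275-93632304, minus strand: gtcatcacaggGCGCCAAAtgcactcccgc
Mcm7, chr5:138171849-138171878, minus strand: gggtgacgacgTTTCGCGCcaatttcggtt
Rfc3, chr5:151651195-151651224, minus strand: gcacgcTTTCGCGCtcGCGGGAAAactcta
Mcm3, chr1:20820265-20820294, minus strand: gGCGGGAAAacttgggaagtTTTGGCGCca

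In Mcm5 and in the stretch shown of Mcm6 the 2 matches overlap on opposite strands, and they begin at position −153 from the start in Mcm5 and −110 in Mcm6. Mcm3 has 2 matches just after its start and hardly moved. The 250 bases upstream of 3 genes, chosen after their values were seen, are given with E2F-type matches and CCAAT boxes in capitals. Mcm5 fell, Tk1 had the deepest fall of the members without any of the letters searched, and Orc2 rose. The 1 CCAAT box of Orc2 and 1 of the 3 of Mcm5 lie after the start, past the bases shown.
Mcm5, chr8:75109259-75109508, plus strand: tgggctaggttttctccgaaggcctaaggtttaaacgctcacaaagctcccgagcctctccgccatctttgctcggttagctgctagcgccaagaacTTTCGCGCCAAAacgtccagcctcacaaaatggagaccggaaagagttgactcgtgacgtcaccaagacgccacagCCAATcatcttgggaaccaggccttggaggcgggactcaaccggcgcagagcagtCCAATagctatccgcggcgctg
Tk1, chr11:117826015-117826264, minus strand: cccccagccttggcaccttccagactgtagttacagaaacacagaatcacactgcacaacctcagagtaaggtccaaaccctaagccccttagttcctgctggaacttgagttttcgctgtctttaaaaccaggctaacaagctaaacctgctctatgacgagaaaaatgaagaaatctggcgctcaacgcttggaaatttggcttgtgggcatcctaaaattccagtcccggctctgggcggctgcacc
Orc2, chr1:58505110-58505359, minus strand: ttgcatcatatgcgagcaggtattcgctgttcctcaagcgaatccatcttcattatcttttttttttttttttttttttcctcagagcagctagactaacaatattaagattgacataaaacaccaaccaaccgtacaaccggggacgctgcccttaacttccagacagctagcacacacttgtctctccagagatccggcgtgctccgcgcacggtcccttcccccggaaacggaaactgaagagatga

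**Figure D3:**
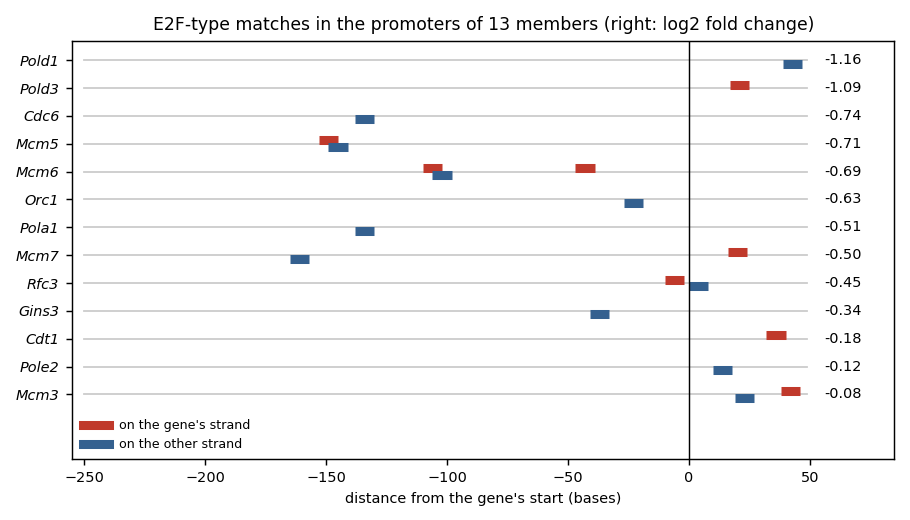
Position of each E2F-type match in the promoters of the 13 members that have one, with the log2 fold change of CSE-KO over WT at the right. Positions are distances in bases from the gene's most upstream start listed in RefSeq. Red blocks are on the gene's own strand and blue blocks on the other. Matches lie on both sides of the start, 11 wholly upstream and 8 at or after it, from Pold1 (−1.16) at the top to Mcm3 (−0.08) at the bottom.

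Origin licensing genes fell in 8 of 11 members, rose in 2 and did not pass in 1, with a median log2 fold change of −0.45. The 6 ring subunits did not move alike. Mcm5 and Mcm6 fell by over 1.5-fold, Mcm2 and Mcm7 by less, and Mcm3 and Mcm4 lay near their WT values. Mcm6 was at 650, 590 and 584 in CSE-KO 1 to 3, against 1005, 963 and 982 in WT 1 to 3 (log2 fold change −0.69, SE 0.04, adjusted p = 5.76e-08). Mcm5 was at 509, 450 and 452, against 789, 767 and 749 (−0.71, SE 0.05, adjusted p = 1.65e-07). In both genes the highest CSE-KO library was far below the lowest WT library. Mcm2 was at 656, 661 and 629 in CSE-KO and at 899, 885 and 866 in WT (−0.45, adjusted p = 2.15e-07), and Mcm7 averaged 403 in CSE-KO and 571 in WT (−0.50, SE 0.04, adjusted p = 3.32e-07). Mcm3 stood at 774, 755 and 773 in CSE-KO and at 820, 813 and 799 in WT, a log2 fold change of −0.08 (adjusted p = 0.0235). This call was lost without CSE-KO 2 (adjusted p = 0.0811), without WT 1 (0.0699) and without WT 2 (0.0608). Mcm4 was at 805, 785 and 798, against 897, 830 and 807, and did not pass (−0.08, SE 0.04, adjusted p = 0.0665), though it did without WT 3 (0.0248). The groups do not overlap in Mcm4, but WT 3 and CSE-KO 1 are nearly equal.

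Per kb of annotated exon, the 6 ring subunits lay between 91.1 (Mcm7) and 222 (Mcm4) normalized counts in CSE-KO and between 127 (Mcm2) and 235 (Mcm4) in WT. The ratio of the values of Mcm5 to Mcm3 within a library, which no scaling of libraries can alter, was 0.658, 0.596 and 0.585 in CSE-KO 1 to 3 and 0.962, 0.943 and 0.937 in WT 1 to 3. The pair was chosen after its values were seen and shows unequal change, not which gene changed.

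Of the origin recognition complex, Orc1, the subunit whose level varies with the cell cycle, fell, and Orc2 and Orc6 rose. Orc1 was at 112, 122 and 103 in CSE-KO and at 181, 165 and 175 in WT (log2 fold change −0.63, adjusted p = 4.58e-05). Orc2 was at 654, 704 and 623, against 507, 534 and 518 (0.34, SE 0.05, adjusted p = 3.51e-05), and Orc6 at 330, 308 and 301, against 287, 254 and 271 (0.21, SE 0.06, adjusted p = 0.00761). The groups overlapped in none of the 3. Of the exonic bases of Orc2, 29.8% are shared with Nif3l1 on the opposite strand, which averaged 411 in CSE-KO and 301 in WT, and whether reads were counted by strand is not given in the sources used here. The loaders of the ring followed Orc1 in direction. Cdc6 was at 170, 130 and 159 in CSE-KO and at 250, 247 and 264 in WT (−0.74, adjusted p = 2.46e-05), and Cdt1 at 284, 291 and 296, against 329, 334 and 326 (−0.18, adjusted p = 0.0032). In an alternative with WT 1 to 3 counted as 1 sample, Orc6 (adjusted p = 0.0564) and Cdt1 (0.0594) did not pass.

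**Figure D4:**
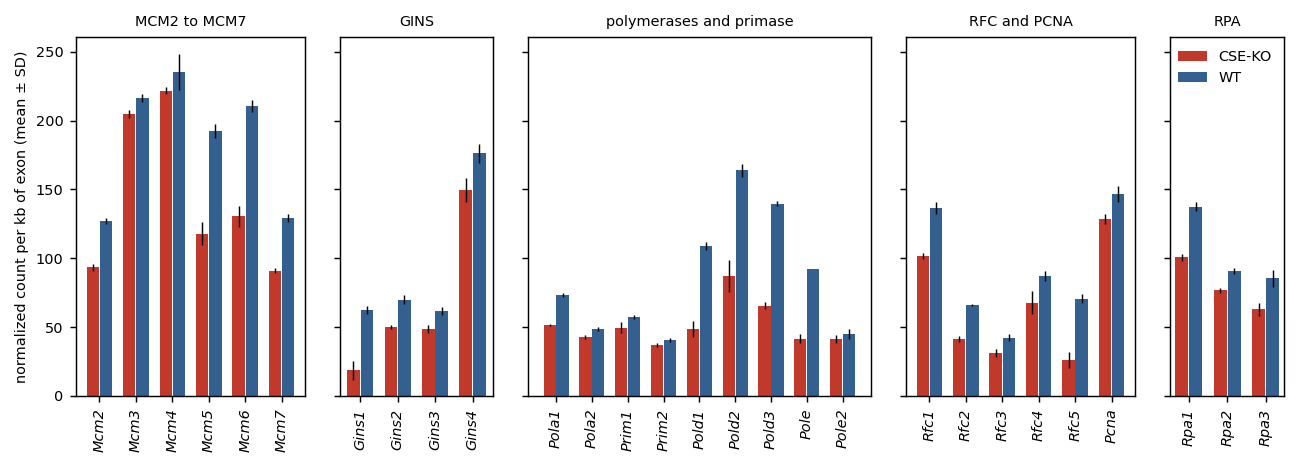
Normalized counts per kb of annotated exon for the subunits of 5 complexes or groups, as mean ± SD of 3 libraries, with CSE-KO bars left of WT bars. Mcm3 and Mcm4 are nearly level between the groups beside shorter CSE-KO bars of Mcm5 and Mcm6, and Pold1, Pold2, Pold3 and Pole stand far below WT beside primase subunits that differ little.

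All 6 helicase activation genes fell, with a median of −0.59. Gins1, 1 of the 4 small subunits of GINS, had by far the deepest fall of them. It was at 40, 25 and 19 in CSE-KO 1 to 3, against 100, 93 and 92 in WT 1 to 3 (log2 fold change −1.81, SE 0.23, adjusted p = 5.09e-05). CSE-KO 1 held the highest of the low values, and without it the log2 fold change of Gins1 was −2.10. Mcm10, which binds the helicase as it starts, was at 192, 187 and 177 in CSE-KO and at 333, 345 and 312 in WT (−0.83, SE 0.06, adjusted p = 2.47e-07). Cdc45, the helicase cofactor, was at 153, 172 and 174, against 276, 239 and 299 (−0.70, SE 0.09, adjusted p = 2.16e-05). The other GINS subunits moved less than Gins1. Gins3 was at 134, 122 and 138, against 160, 164 and 176 (−0.34), and Gins4 at 213, 189 and 203, against 247, 228 and 238 (−0.24, adjusted p = 0.00603, and 0.0778 with WT 1 to 3 counted as 1 sample). Gins2 was at 211, 201 and 201 in CSE-KO and at 301, 278 and 279 in WT (−0.48, adjusted p = 1.4e-05). Its value is uncertain, since 67.3% of its exonic bases are shared with Gse1 on the opposite strand, which averaged 1040 in CSE-KO and 234 in WT.

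Among polymerases and primase, 8 of 9 members fell and Pole2 did not pass. Pole and the 3 polymerase delta subunits among the members were lowest. Pole, catalytic subunit of the leading strand polymerase (ENSMUSG00000007080, chromosome 5, 110286306 to 110337474), was at 504, 439 and 443 in CSE-KO 1 to 3 and at 1029, 1027 and 1032 in WT 1 to 3. That is a log2 fold change of −1.16 (SE 0.05, adjusted p = 9.69e-09). Polymerase delta fell in all 3 members. Pold3, an accessory subunit, was at 316, 295 and 294, against 649, 644 and 632 (−1.09, SE 0.04, adjusted p = 2.6e-09). Pold1, the catalytic subunit, was at 270, 220 and 222, against 542, 530 and 515 (−1.16, SE 0.07), and Pold2 at 188, 144 and 163, against 320, 310 and 302 (−0.92, SE 0.09). In these 4 genes the CSE-KO mean was between 44.9% and 53.1% of the WT mean, and CSE-KO 1 held the highest value of its group. Pold4, a further subunit of polymerase delta that is not a member, did not fall. It was at 132, 128 and 144 in CSE-KO, against 121, 109 and 125 in WT, and did not pass (0.19, adjusted p = 0.0773).

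The primer-making complex changed less. Pola1, its catalytic subunit, was at 450, 459 and 450 in CSE-KO and at 655, 631 and 650 in WT (−0.51, SE 0.03, adjusted p = 1.25e-07). Pola2 averaged 355 ± 10.8 against 405 ± 11.0 (−0.19), Prim1 192 ± 15.7 against 222 ± 6.08 (−0.21) and Prim2 218 ± 8.08 against 243 ± 8.72 (−0.15; SD, n = 3 each). The calls of Prim1 and Prim2 were lost without CSE-KO 3 (adjusted p = 0.0682 and 0.0985), without WT 1 (0.0602 and 0.111) and without WT 2 (0.0566 and 0.0534). Pole2, the second subunit of polymerase epsilon, was at 128, 110 and 119 in CSE-KO and at 118, 140 and 129 in WT and did not pass (−0.12, SE 0.10, adjusted p = 0.29). It is the only member in which the groups overlap. Within a library, the ratio of Pole to Pole2 was 3.94, 3.99 and 3.72 in CSE-KO and 8.72, 7.34 and 8 in WT, a pair chosen after its values were seen.

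**Figure D5:**
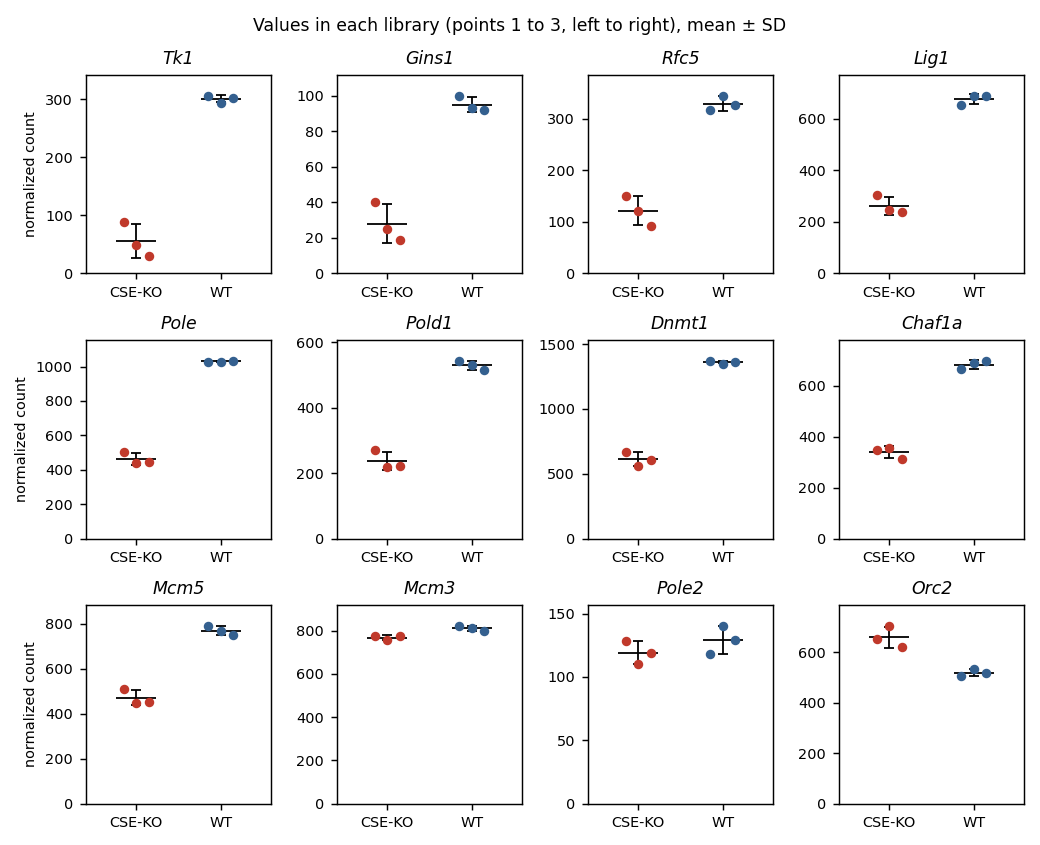
Normalized counts of 12 members in each library, CSE-KO left and WT right in each panel, with the mean ± SD of 3 libraries. Axes start at 0. In the upper 2 rows and in Mcm5 the groups are far apart, with WT points close together and CSE-KO 1 often the highest CSE-KO point, while Mcm3 is nearly level, Pole2 overlaps and Orc2 is higher in CSE-KO.

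The clamp and its loader fell in all 6 members, with a median of −0.44, and Rfc5 stood out. Rfc5, a small loader subunit, was at 150, 122 and 93 in CSE-KO 1 to 3, against 317, 345 and 327 in WT 1 to 3 (log2 fold change −1.46, SE 0.16, adjusted p = 0.000146). Rfc2 was at 271, 245 and 269, against 416, 409 and 419 (−0.66, SE 0.05, adjusted p = 4.01e-07). Rfc1, the large subunit, was at 626, 608 and 603, against 799, 813 and 851 (−0.42, SE 0.03, adjusted p = 5.59e-07). Groups did not overlap in any of these. Rfc3 averaged 112 ± 10.8 in CSE-KO and 153 ± 10.1 in WT (−0.45), and Rfc4 104 ± 12.7 and 134 ± 5.69 (−0.37; SD, n = 3 each). Rfc4 did not pass with WT 1 to 3 counted as 1 sample (adjusted p = 0.0855), and it shares 12.7% of its exonic bases with the abundant Eif4a2 on the opposite strand. The ratio of Rfc5 to Rfc4 was 1.27, 1.23 and 0.989 in CSE-KO and 2.46, 2.46 and 2.48 in WT, again a pair chosen afterwards. Pcna, the clamp itself and a common marker of proliferation, moved little, at 308, 318 and 301 in CSE-KO and 361, 360 and 335 in WT (−0.19, adjusted p = 0.00466). With libraries scaled to equal totals, Pcna did not pass (adjusted p = 0.0592).

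The 3 subunits of RPA, which coats single-stranded DNA, fell modestly. Rpa1 was at 578, 553 and 552 in CSE-KO and at 771, 782 and 748 in WT (−0.45, SE 0.03, adjusted p = 3.22e-07). Rpa2 was at 232, 224 and 234, against 268, 278 and 268 (−0.24, SE 0.05, adjusted p = 0.00146), and Rpa3 at 77, 70 and 67, against 97, 104 and 90 (−0.44, SE 0.11, adjusted p = 0.0033, and 0.0516 with WT 1 to 3 counted as 1 sample). No CSE-KO value reached its WT range.

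Both genes that finish lagging strand fragments fell, unequally. Lig1, the ligase that seals the fragments, was at 304, 246 and 238 in CSE-KO 1 to 3, against 654, 690 and 690 in WT 1 to 3 (log2 fold change −1.37, SE 0.09, adjusted p = 2.42e-06). Fen1, the flap nuclease, was at 344, 340 and 365, against 460, 470 and 458 (−0.40, SE 0.04, adjusted p = 5.27e-06). The ratio of Lig1 to Fen1 was 0.884, 0.724 and 0.652 in CSE-KO and 1.42, 1.47 and 1.51 in WT, a pair also chosen afterwards. Gm10143, on the opposite strand over 78.8% of the exonic bases of Fen1, was low, with a mean of 22.3 in WT and less in CSE-KO.

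Genes of nucleotide supply all fell and covered the widest range among the roles of the 48 genes. Tk1, thymidine kinase of the salvage route (ENSMUSG00000025574, chromosome 11, 117815526 to 117826092), had the deepest fall of all members. It was at 88, 49 and 30 in CSE-KO 1 to 3 and at 306, 294 and 302 in WT 1 to 3, a 5.89-fold lower level (log2 fold change −2.56, SE 0.42, adjusted p = 0.00351). Its CSE-KO values differed nearly 3-fold among themselves, and without CSE-KO 1 the log2 fold change was −2.95 (adjusted p = 2.14e-08). With WT 1 to 3 and CSE-KO 2 and 3 each counted as 1 sample, Tk1 did not pass (adjusted p = 0.149). Ribonucleotide reductase, which makes deoxynucleotides, changed unevenly. Its large subunit Rrm1 was at 759, 694 and 663 in CSE-KO, against 1161, 1152 and 1175 in WT (−0.72, SE 0.04, adjusted p = 1.31e-07). Its small subunit Rrm2 was at 521, 547 and 546, against 607, 596 and 578 (−0.14, SE 0.04, adjusted p = 0.00398), a change that did not pass with equal totals (0.116). The ratio of Rrm1 to Rrm2 was 1.46, 1.27 and 1.21 in CSE-KO and 1.91, 1.93 and 2.03 in WT, a pair also chosen afterwards. Tyms, thymidylate synthase of the de novo route, was at 304, 306 and 305 in CSE-KO and at 411, 398 and 398 in WT (−0.40, SE 0.04, adjusted p = 4.78e-06).

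The 4 genes that rebuild chromatin and its methylation behind the fork all fell, to between 44.9% and 52.7% of WT, with a median of −1.05. Dnmt1, the maintenance DNA methyltransferase (ENSMUSG00000004099, chromosome 9, 20907209 to 20959888), was at 666, 560 and 608 in CSE-KO 1 to 3, against 1369, 1349 and 1363 in WT 1 to 3 (log2 fold change −1.16, SE 0.06, adjusted p = 1.97e-07). Uhrf1, which guides DNMT1 to newly copied DNA, was at 401, 304 and 328, against 765, 713 and 716 (−1.09, SE 0.10, adjusted p = 7.15e-05). Both subunits of chromatin assembly factor CAF-1 that are members fell as well. Chaf1a was at 348, 357 and 312, against 665, 689 and 698 (−1.01, SE 0.05, adjusted p = 1.7e-08), and Chaf1b at 153, 144 and 139, against 269, 285 and 274 (−0.92, SE 0.06, adjusted p = 1.7e-07). Of the exonic bases of Chaf1a, 52.5% are shared with Ubxn6 on the opposite strand, which averaged 554 in CSE-KO and 516 in WT. The ratio of Dnmt1 to Pcna, to which DNMT1 binds, was 2.16, 1.76 and 2.02 in CSE-KO and 3.79, 3.75 and 4.07 in WT. This pair, too, was chosen afterwards.

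The 3 regulators of the G1/S step fell. E2f1, an activator of replication genes, was at 184, 152 and 162 in CSE-KO and at 286, 294 and 321 in WT (log2 fold change −0.86, SE 0.08, adjusted p = 1.73e-06). Ccne2 was at 157, 157 and 156, against 230, 246 and 227 (−0.58, SE 0.06, adjusted p = 6.35e-06), and Ccne1, the other E cyclin, at 123, 106 and 113, against 157, 156 and 148 (−0.43, SE 0.08, adjusted p = 0.000664). The groups did not overlap in the 3 genes. Of Ccne2, 17.4% of the exonic bases are shared with Ints8 on the opposite strand, at a mean of 536 in CSE-KO and 618 in WT.

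Other genes of the pathway, from a list of 98, moved less uniformly than the members. Of these, 58 fell, 23 rose and 17 did not pass, with a median of −0.21, against 39.0% falling and 38.3% rising over all tested genes. Among origin and licensing factors, 9 of 14 fell and 4 rose. Topbp1, which helps load CDC45, was at 684, 613 and 602 in CSE-KO and at 1217, 1226 and 1195 in WT (−0.94, adjusted p = 2.27e-08), and Dbf4, the activator of the CDC7 kinase, at 433, 415 and 420, against 590, 591 and 589 (−0.48). Mtbp, a partner of the firing factor Ticrr, rose instead, at 558, 615 and 605 against 320, 317 and 296 (0.93, adjusted p = 2.46e-08), while Ticrr fell by 2.05 on the log2 scale. Orc4 also rose, at 590, 604 and 630 against 399, 449 and 416 (0.53). Of fork and checkpoint genes, 11 of 14 fell and 1, Rad17, rose, at 396, 410 and 425 in CSE-KO against 375, 367 and 368 in WT (0.15, adjusted p = 0.00759). Chtf18, which builds an alternative clamp loader, was at 72, 54 and 64 in CSE-KO and at 237, 240 and 238 in WT (−1.91, adjusted p = 3.22e-08), and Hells, a remodelling helicase, at 303, 274 and 279, against 559, 564 and 529 (−0.95).

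The small accessory subunits of polymerase epsilon went the other way from Pole. Pole4 was at 358, 381 and 363 in CSE-KO and at 188, 199 and 186 in WT (0.94, adjusted p = 4.05e-08), and Pole3 at 452, 476 and 449, against 416, 408 and 410 (0.16, adjusted p = 0.00354). Of the 12 further polymerase subunits and topoisomerases on the list, these 2 among them, 4 rose and 4 fell, shares near those of all tested genes (38.3% and 39.0%). Top2b, a topoisomerase not tied to division, was at 1339, 1379 and 1342, against 1579, 1563 and 1526 (−0.20). Rnaseh2c, a subunit of the nuclease that removes ribonucleotides from DNA, was at 131, 120 and 122, against 191, 190 and 173 (−0.57). The other falls were deeper, in Top2a (835, 617 and 572 in CSE-KO, against 1924, 1896 and 1866 in WT; −1.51) and Dna2 (−1.33). In nucleotide metabolism, 9 of 14 genes fell and 5 rose. Cad, which starts pyrimidine synthesis, was at 1141, 1097 and 1168 in CSE-KO and at 1686, 1635 and 1661 in WT (−0.55). Nudt1, which clears oxidised nucleotides, was at 73, 62 and 55, against 153, 143 and 154 (−1.25). Rrm2b, the p53-induced small subunit of ribonucleotide reductase, rose, at 369, 422 and 419 against 287, 295 and 262 (0.52, adjusted p = 2.13e-05). Of 9 histone chaperone and supply genes, 2 fell, 2 rose and 5 did not pass. The paralogs Asf1b and Asf1a moved apart, with Asf1b at 109, 89 and 78 in CSE-KO against 331, 315 and 322 in WT (−1.82) and Asf1a at 223, 263 and 259 against 180, 175 and 171 (0.50). The other changes among them were small, in Rbbp7 (0.08, adjusted p = 0.019, and 0.0764 without WT 3) and Supt16 (−0.09, adjusted p = 0.0155). Supt16 did not pass with equal totals (−0.02, adjusted p = 0.629), without CSE-KO 3 (0.0636) or without WT 1 (0.0622).

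The E2F family divided as well. E2f2, a further activator, was at 37, 28 and 38 in CSE-KO and at 121, 101 and 102 in WT (−1.65, adjusted p = 1.74e-06). The repressors E2f7 (240, 175 and 150, against 572, 584 and 565; −1.63) and E2f8 (367, 280 and 280, against 724, 697 and 683; −1.19) fell too. E2f3 rose, at 477, 486 and 503 against 408, 413 and 410 (0.25), and E2f4, a partner of the repressive DREAM complex, did not pass, at 585, 595 and 623 against 607, 583 and 567 (0.04, adjusted p = 0.394), though it did with equal totals (0.11, adjusted p = 0.0208). E2f5 (−0.29) and E2f6 (−0.47) fell. Of the RB family, Rbl1 was at 272, 242 and 234 in CSE-KO and at 476, 450 and 498 in WT (−0.93), and Rbl2 at 330, 335 and 299, against 519, 520 and 517 (−0.69), whereas Rb1 rose by 0.13 on the log2 scale (adjusted p = 0.0142). The DREAM core genes Lin37 (165, 191 and 202, against 86, 90 and 110; 0.96) and Lin52 (155, 138 and 153, against 88, 84 and 81; 0.81) rose. Others of that core moved less, with Lin9 rising by 0.20 (adjusted p = 0.0252). Lin54 (−0.02, adjusted p = 0.687) and Rbbp4 (−0.02, adjusted p = 0.555) did not pass.

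Of 17 G1/S cyclins, kinases and inhibitors, 12 fell and 2 rose, against 39.0% and 38.3% of all tested genes. Cdkn1a, the p53-induced inhibitor of CDK2, rose, at 1375, 1390 and 1417 in CSE-KO against 826, 804 and 817 in WT (0.77, adjusted p = 9.66e-10). The other rise was in Ccnd2, at 2032, 1910 and 2069 against 1595, 1622 and 1583 (0.32). Ccnd1, a D cyclin, was at 1935, 1910 and 1924, against 2079, 2055 and 2006 (−0.09), and did not pass with equal totals (−0.02, adjusted p = 0.486). Ccnd3 was at 445, 389 and 400, against 681, 679 and 701 (−0.74). Cdkn2c, an inhibitor of CDK4 and CDK6, was at 121, 100 and 95, against 274, 277 and 273 (−1.39). The kinase genes Cdk4 (0.06) and Cdk6 (−0.07) did not pass.

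Beside these genes, all 32 mitosis genes of a list fell, with a median of −1.79 and 23 of them at least 2-fold lower, against 39.0% and 12.3% of all tested genes. Mki67, the proliferation marker, was at 1057, 635 and 614 in CSE-KO 1 to 3 and at 3155, 3086 and 3077 in WT 1 to 3 (−2.06, SE 0.25, adjusted p = 0.00146). With WT 1 to 3 and CSE-KO 2 and 3 each counted as 1 sample, Mki67 did not pass (adjusted p = 0.179). All 32 mitosis genes had their highest CSE-KO value in CSE-KO 1, against 61.5% of all genes that fell. Summed mitosis values were 34.4% of WT, against 66.8% for the replication genes, and this difference between the lists was not tested.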

How the data were processed

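RNA sequencing values came from 6 libraries of mouse lung endothelial cells, 3 labelled CSE-KO and 3 labelled WT. The submitters' processing notes name DESeq2 1.26.0, featureCounts 1.6.5, Picard 2.21.7, STAR 2.7.3a and Trimmomatic 0.39, and the build mm10, without roles or order. Per the labels' protocols, libraries were stranded and single-end. The deposited values are whole-number scores, read from the values themselves as rounded normalized counts, since recomputed median-ratio size factors lay between 1.003 and 1.008. Depth in reads is therefore known only approximately. If reads sharing a start position were removed, high values are compressed.

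The scale was log2(value + 0.5). Tested genes had a value of 10 or more in 3 or more libraries. The test was limma 3.58.1 (R 4.3.3) with a group term, mean trend and robust variances, two-sided, with Benjamini-Hochberg adjustment over 13750 genes and a threshold of 0.05. The fold changes understate those of low genes. The code was tested on simulated data. Exonic lengths are unions of GENCODE M21 exons and overstate transcript length. The members and lists were chosen with earlier results of these data known, so their counts are descriptions. Values in each library are given for up to 3 members per role with the smallest adjusted p, members that did not fall, up to 2 falls and 2 rises per role of the wider list, E2f genes, Cdkn1a, Ccnd1, Mki67 and Cth. One result under this rule is not reported here. Other members and genes named were chosen after their values were seen. Alternatives covered scaling, filter, pseudocount, moderation, replicates and start positions.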

Additional observations from a re-analysis of the deposited data

How the results depend on the processing

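Across 20 alternatives no member changed direction, and the members that fell numbered between 30 and 45. Leaving out 1 library in turn gave between 41 and 45 falls, 2 rises and a median between −0.51 and −0.47. Over the same refits, falls over all genes lay between 5101 and 5405 and rises between 4999 and 5231, and the other replication genes fell in 54 to 58 and rose in 20 to 23. The call of 30 members was kept under every alternative. Against a fold of 1.2, 30 members fell and 0 rose, 8 other replication genes rose, and over all genes 3529 fell and 3182 rose. With equal totals the members' median was −0.42 and the median of all tested genes 0.075, and over all genes 6007 rose and 4765 fell, so the near balance of rises and falls over all genes depends on the scaling. Of the other replication genes 30 rose and 50 fell there, and 39 members fell, Mcm3, Pcna, Prim1, Prim2 and Rrm2 no longer passing. With WT 1 to 3 counted as 1 sample, 35 members fell, 1 rose (Orc2) and 15 other replication genes rose. Cdt1, Gins4, Mcm3, Orc6, Pcna, Prim1, Prim2, Rfc4, Rpa3 and Rrm2, and of the other genes named E2f5, Pole3, Rad17, Rbbp7 and Supt16, then did not pass. With CSE-KO 2 and 3 also counted as 1 sample, 31 members fell, 1 rose, and of the other replication genes 38 fell and 13 rose, with Gins3, Pola2, Rpa2, Tk1, Ccnd1, E2f7, E2f8 and Mki67 also not passing. Fewer samples are fitted there. Over all genes, too, falls and rises were fewer than in the main fit in both refits that count WT 1 to 3 as 1 sample. With the replicate number as a block, 44 members fell and 2 rose, and over all genes 5269 fell and 5171 rose. Same-numbered libraries did not deviate together (correlations −0.000786, 0.02 and 0.0109), so the numbers are not taken to pair samples. Correcting for shared start positions moved the median to −0.51 and no member's call. The lowest values, and so the least depth, were those of Gins1, Rpa3 and Tk1, at 88 or less in each CSE-KO library.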
